A study of Homo sapiens with 8 samples.

Results

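The BAF complex, also called mammalian SWI/SNF, is a chromatin remodeler, and 10 of its subunit genes were followed in long-read RNA from human pluripotent stem cells and their germ-layer derivatives. The members are SMARCA4, SMARCA2, ARID1A, ARID1B, SMARCC1, SMARCC2, SMARCD1, SMARCD3, DPF2 and ACTL6A. They were chosen by name, by a rule that uses no measured value, but with earlier results of these data known. Each was taken as the sum of the transcripts that the combined assembly itself assigns to the gene. They make up 10 of the 20096 genes with a symbol in the combined table and 88 of its 96614 transcripts. All cells came from the H1 line, an established line of human embryonic stem cells. Undifferentiated cells (hPSC) were kept in mTeSR1 on Matrigel. Ectoderm was grown with A83-01, PNU-74654 and Dorsomorphin. Endoderm received WNT3A and Activin A, and mesoderm received VEGF, BMP4 and bFGF, with Activin A on its opening day. The layers were collected after 5 days. Each group had 2 repeats, 8 libraries in all, of polyadenylated RNA sequenced on a PacBio Sequel II. The labels do not say whether repeats were separate cultures, so p-values measure the spread between these libraries, which may be technical. One cell line stands behind every group, and each layer is a bulk culture in which fewer cells of a type and less RNA per cell cannot be told apart.

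A BAF complex carries a single ATPase, SMARCA4 (BRG1) or SMARCA2 (BRM), which uses ATP to slide or evict nucleosomes. SMARCC1 and SMARCC2 (BAF155 and BAF170) form the scaffold on which a SMARCD subunit and the other core members assemble, an ARID1 subunit and DPF2 mark the canonical form of the complex, and ACTL6A is an actin-related subunit bound to the ATPase. Embryonic stem cells are known for a form built on SMARCA4, ARID1A and SMARCC1, and subunits are exchanged for their paralogs when cells differentiate.

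Libraries held from 503840 to 1180888 counted reads. Values are given as read counts and as normalised CPM, the read count scaled by the library total and by edgeR's TMM composition factor. Where no read was seen, up to 3 reads remain possible, which is from 1.97 to 7.19 normalised CPM and covers counting error only. The reads of the ectoderm libraries came from longer transcripts, with a mean length per read of 4406 and 4650 nt, against 3298 and 3114 nt in hPSC, 3073 and 2975 nt in endoderm and 3765 and 3840 nt in mesoderm. The hPSC repeats differed from each other more than those of any layer, by chi-square over genes at 7.62 per degree of freedom against 1.59 to 2.18. Endoderm and ectoderm markers were high in their own layer, where 6 of 6 and 5 of 6 tested markers were higher than in hPSC (edgeR, adjusted p under 0.05). In the cells labelled mesoderm, MIXL1 and FOXF1 had no read, and 7 of 7 tested amnion and trophoblast markers were higher than in hPSC, as were 3 of 5 tested mesoderm markers, with 1 lower. The summed level of the 8 amnion and trophoblast genes was 1255 and 1288 normalised CPM in mesoderm and at most 108 elsewhere. Their part in the mesoderm results was not tested. The endoderm libraries held pluripotent markers at a summed 3180 to 3420 normalised CPM, mostly LIN28A, TDGF1 and SALL4, against 4474 to 5437 in hPSC. Of the 8 markers 4 were lower than in hPSC, namely POU5F1, SOX2, DNMT3B and DPPA4, and SOX2 had no read. The ectoderm markers of the endoderm libraries, mostly OTX2, summed to 556 to 585, against 634 to 823 in ectoderm. LHX5, DLK1, LHX2, SIX6 and HES5 had no read in the endoderm libraries. Their neuron markers, mostly TUBB3, summed to 2176 to 2418, against 241 to 426 in hPSC, with 2 of 4 tested higher. The part of these marker levels in the endoderm results was not tested.

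For 9 coding exons of 5 members, some reads kept the exon and others skipped it, and each is a whole number of codons long. The sequences of 5 of them, in SMARCA4, SMARCC2 and SMARCD1, are shown because their shares are given library by library with each gene. They are from GENCODE release 29 on GRCh38, 5′ to 3′, with the alternative exon in capitals and 20 bases of each neighbouring exon in lower case. The exons lie at chr19:11033767-11033865 and chr19:11058788-11058889 in SMARCA4 (plus strand), at chr12:56172937-56173029 in SMARCC2 (minus strand) and at chr12:50087363-50087485 and chr12:50096850-50096972 in SMARCD1 (plus strand).
SMARCA4 99-nt exon: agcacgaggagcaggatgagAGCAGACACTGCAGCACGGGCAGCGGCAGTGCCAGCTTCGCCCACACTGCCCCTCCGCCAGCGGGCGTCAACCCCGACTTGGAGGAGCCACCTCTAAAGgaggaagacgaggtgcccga
SMARCA4 102-nt exon: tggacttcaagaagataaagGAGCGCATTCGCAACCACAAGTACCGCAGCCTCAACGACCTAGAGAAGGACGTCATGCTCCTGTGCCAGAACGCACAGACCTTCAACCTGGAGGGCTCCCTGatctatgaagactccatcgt
SMARCC2 93-nt exon: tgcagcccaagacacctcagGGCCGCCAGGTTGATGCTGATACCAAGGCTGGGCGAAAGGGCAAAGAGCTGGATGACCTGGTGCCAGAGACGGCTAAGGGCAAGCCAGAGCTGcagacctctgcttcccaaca
SMARCD1 upstream 123-nt exon: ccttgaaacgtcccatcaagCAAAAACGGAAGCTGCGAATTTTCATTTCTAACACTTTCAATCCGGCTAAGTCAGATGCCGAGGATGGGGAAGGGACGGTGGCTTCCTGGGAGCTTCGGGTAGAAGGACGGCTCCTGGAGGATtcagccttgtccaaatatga
SMARCD1 downstream 123-nt exon: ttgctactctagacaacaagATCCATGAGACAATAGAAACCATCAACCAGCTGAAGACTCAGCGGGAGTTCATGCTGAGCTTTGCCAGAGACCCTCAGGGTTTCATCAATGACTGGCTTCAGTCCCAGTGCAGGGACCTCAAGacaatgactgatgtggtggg

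The comparison of each layer with hPSC asks which subunits differ between pluripotent and differentiated cells. In ectoderm ARID1A, ARID1B, SMARCC1 and SMARCC2 were higher than in hPSC, by 1.08 to 1.27 on the log2 scale for the ARID1 pair and by 0.82 to 0.94 for the scaffold pair. In endoderm ACTL6A and SMARCC1 were lower. In mesoderm SMARCA2 was higher, and ACTL6A, DPF2 and SMARCD1 were lower. SMARCA4 was called in none of the 6 comparisons between groups. Of the 10 members 9 had enough counts to be tested, and SMARCD3 had not. SMARCA2 had enough only through its mesoderm libraries. In ectoderm 4 of the 9 were called, all higher, where 48.6% of all 10847 tested genes were called (23.8% higher). In endoderm 2 of 9 were called, both lower, against 27.2% of all genes (13.7% lower). In mesoderm 4 of 9 were called, 1 higher and 3 lower, against 35.1% (16.9% higher and 18.2% lower). The median log2 fold change of the 9 was 0.04, -0.57 and -0.10 in the 3 layers, beside -0.01, -0.13 and 0.01 over all tested genes. The shares called among the members are near those of all genes in each layer, and the 3 comparisons share the hPSC libraries.

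**Figure D1:**
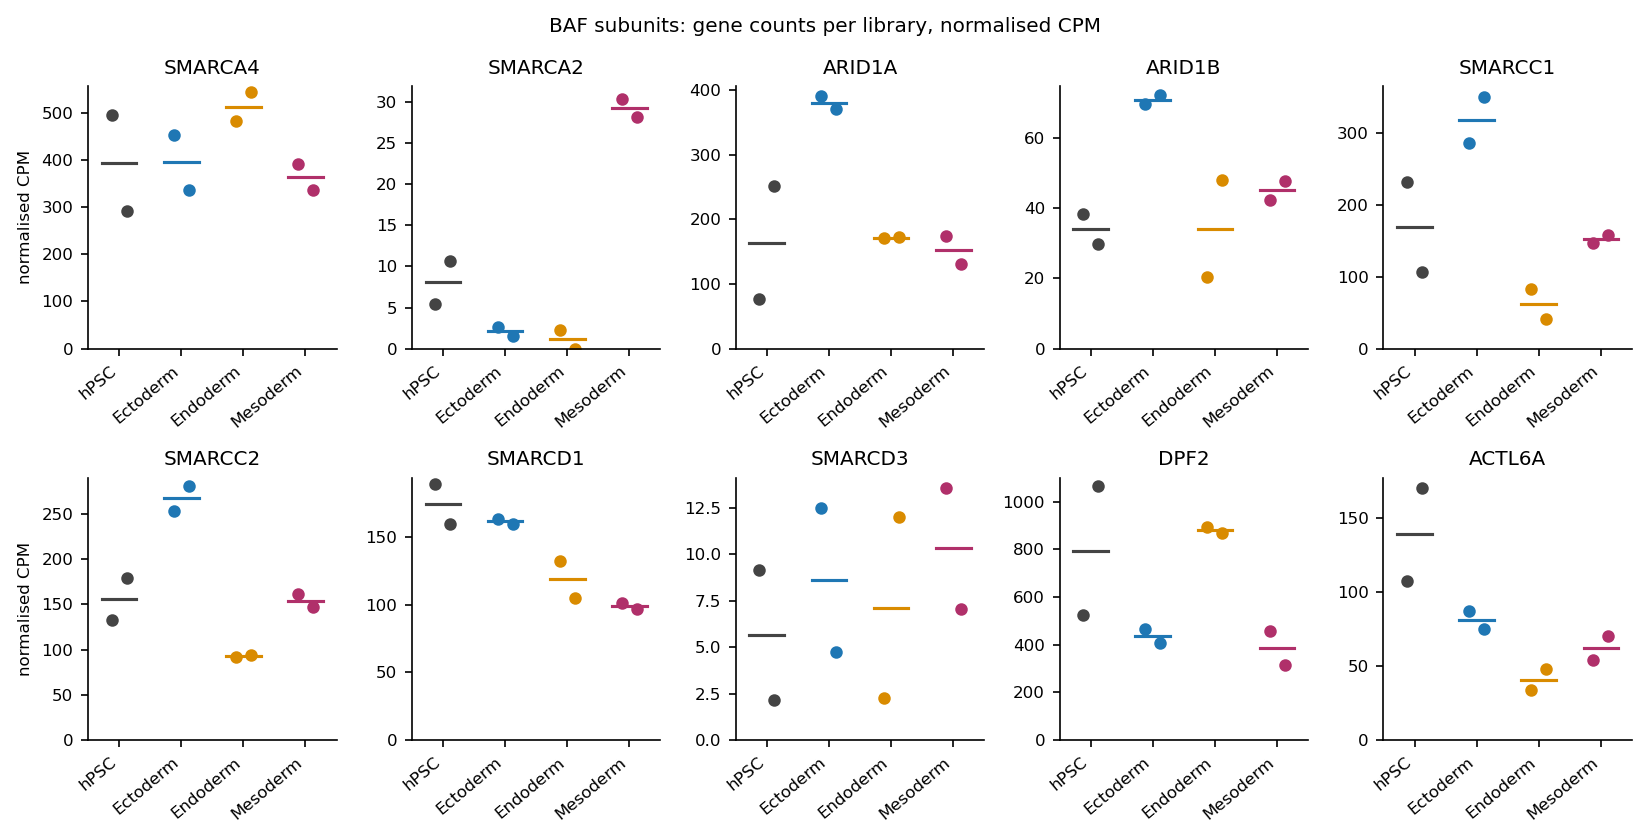
Normalised CPM (vertical axis, from 0) of the 10 BAF subunit genes in each of the 8 libraries; points are libraries and bars are group means of 2. ARID1A, ARID1B, SMARCC1 and SMARCC2 are highest in both ectoderm libraries, and SMARCA2 is highest in both mesoderm libraries.

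The 4 ectoderm calls are given beside transcript length, whose part in them was not tested. The reads of ARID1B, ARID1A, SMARCC1 and SMARCC2 came from transcripts averaging 7095, 6581, 6354 and 4756 nt. DPF2, SMARCD1 and ACTL6A, with 3622, 3277 and 1854 nt, were not higher there. SMARCA4, with 5393 nt longer than SMARCC2, was not called either, at 0.04 (edgeR adjusted p 0.935). Of all tested genes whose reads averaged 4000 nt or longer, 38.6% were higher in ectoderm than in hPSC, against 2.61% of those under 2000 nt. When a smooth trend on transcript length was removed from every library, the 4 calls were lost. Such a removal also takes out true differences that follow length. A length bias of the libraries and a true rise of long genes cannot be told apart here. The log2 fold changes became 0.41 for ARID1A (edgeR adjusted p 0.455), 0.19 for ARID1B (0.714), 0.15 for SMARCC1 (0.764) and 0.32 for SMARCC2 (0.394). DPF2 was then called lower, at -0.99 (adjusted p 0.034). With this correction ACTL6A and SMARCC1 were still called lower in endoderm. In mesoderm SMARCA2 was still called higher and SMARCD1 and DPF2 lower, and the call of ACTL6A was lost.

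**Figure D2:**
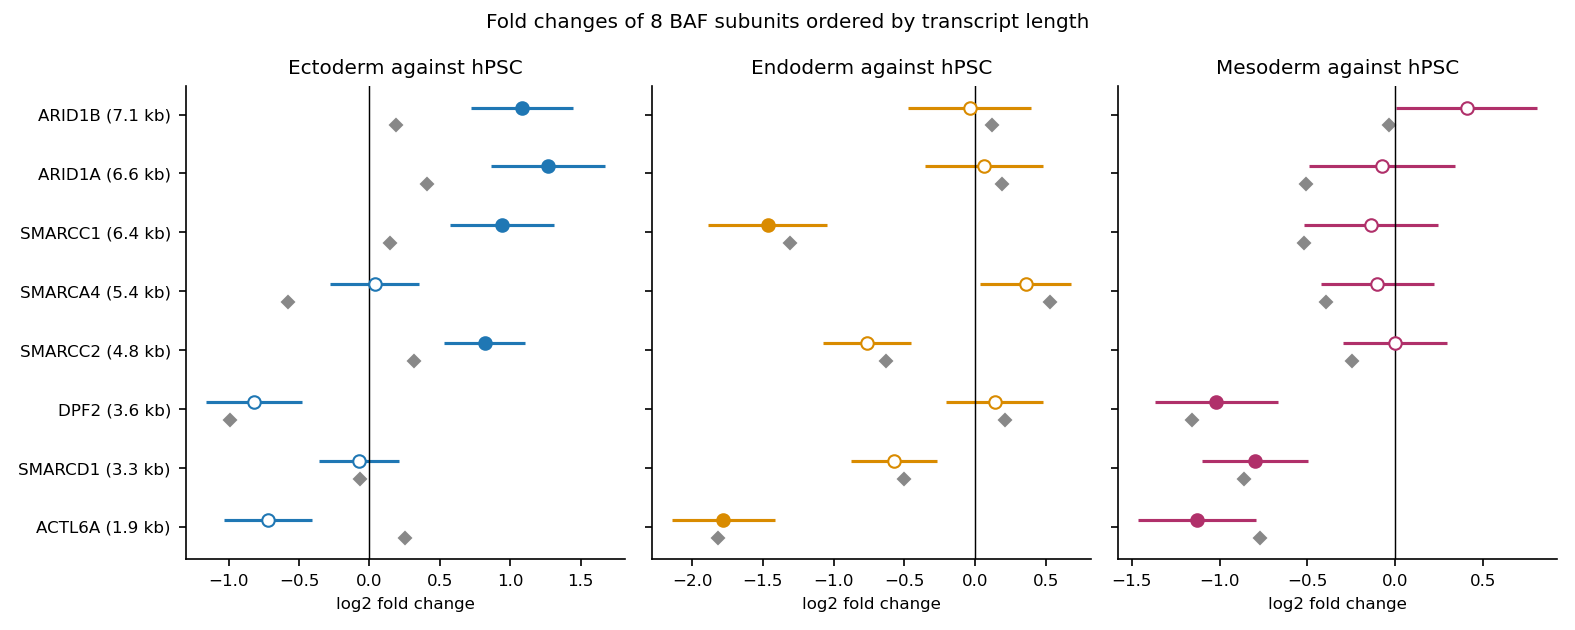
Log2 fold changes against hPSC (horizontal axis) of 8 tested members, ordered by the mean transcript length of their reads; circles with bars are the estimate ± SE, filled where the edgeR adjusted p was under 0.05, and grey diamonds are the values with the length trend removed. In ectoderm the 4 filled circles lie from 0.82 to 1.27 and their diamonds from 0.15 to 0.41; SMARCA2, with few counts, is left out.

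SMARCA4 (ENSG00000127616.21, chromosome 19, 10960932 to 11062468, plus strand) is the ATPase of the complex in pluripotent cells. The hPSC libraries gave 272 and 137 reads, the ectoderm libraries 688 and 425, the endoderm libraries 214 and 227 and the mesoderm libraries 231 and 191. In normalised CPM these are 496 and 292, 452 and 337, 482 and 544, and 391 and 337. The groups overlapped, except that both endoderm libraries lay above the ectoderm and mesoderm libraries. The log2 fold changes against hPSC were 0.04 ± 0.32 (SE, edgeR adjusted p 0.935), 0.36 ± 0.32 (0.443) and -0.10 ± 0.32 (0.833) in ectoderm, endoderm and mesoderm. With the length trend removed SMARCA4 was lower in ectoderm and in mesoderm than in endoderm, by -1.10 (adjusted p 0.00625) and -0.92 (0.0241), which is not the case without that correction. Without hPSC repeat 1 it was higher in endoderm than in hPSC, at 0.82 (adjusted p 0.0275).

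SMARCA4 reads were spread over 23 transcripts, of which 10 match a reference transcript. The 2 with most reads, a form assembled by the authors and ENST00000647230.1, each took from 9.5% to 15.3% of the gene's reads in every library. The 102-nt exon belongs to the part of the gene that encodes the bromodomain, the module that binds acetylated lysine. Reads skipping it numbered 25 of 205 and 21 of 214 in the endoderm libraries, which is 12.2% (95% Wilson interval 8.4 to 17.4) and 9.8% (6.5 to 14.5). In the other 6 libraries the share was from 2.1% to 4.5%, so both endoderm libraries lay above all others. All skipping reads came from 3 assembled transcripts that match no reference transcript. The exact permutation test over the 4 groups gave p = 0.0571 (adjusted 0.229 over 24 splice events), and leaving out 1 library at a time gave 0.0286 to 0.114.

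The 99-nt exon of SMARCA4 was in a minority of reads in every group. Of the hPSC reads 12.7% and 10.0% included it, against 11.1% and 11.6% for ectoderm, 9.9% and 7.5% for endoderm and 12.7% and 16.8% for mesoderm. Endoderm was lowest, and mesoderm overlapped hPSC (exact permutation p 0.0952, adjusted 0.286). No change of transcript choice was called for SMARCA4 by edgeR's diffSpliceDGE, with adjusted p of 0.992, 0.306 and 0.730 in the 3 layers. How the authors assigned reads among transcripts that differ by 1 exon is not given in the sources used here.

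SMARCA2 (ENSG00000080503.25, chromosome 9, 2015347 to 2193620, plus strand), the alternative ATPase, had few reads. The hPSC libraries held 3 and 5 reads, ectoderm 4 and 2, endoderm 1 and 0 and mesoderm 18 and 16. The mesoderm libraries, at 30.5 and 28.2 normalised CPM, lay above all others, of which the highest was 10.7. SMARCA2 passed the count filter only through its mesoderm libraries, the group where it is high. Its tests with mesoderm are therefore not independent of that filter. Against hPSC the log2 fold change was 1.89 ± 0.55 in mesoderm (SE, edgeR adjusted p 0.0145). In ectoderm it was -1.76 ± 0.76 (0.0684). Ectoderm was lower than mesoderm by -3.65 ± 0.55 (edgeR adjusted p 0.000131). With 34 counts in mesoderm and 1 in endoderm the ratio of pooled levels was 25.3 (95% interval from counting error 4.25 to 1029). The call against hPSC did not hold with DESeq2 (adjusted p 0.169), without hPSC repeat 1 (0.109), or without either mesoderm library (0.111 and 0.0935).

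Most SMARCA2 reads of mesoderm came from long transcripts. Transcripts of 23 to 33 exons took 14 and 10 reads in mesoderm. They took 1 read in each hPSC library, 1 in endoderm repeat 1 and 0 in endoderm repeat 2 and in both ectoderm libraries. The remaining 5 transcripts, of 4 to 8 exons, took 2 and 4 reads from the hPSC libraries, 4 and 2 from ectoderm, none from endoderm and 4 and 6 from mesoderm. The transcript with most reads, ENST00000357248.8 with 33 exons, had 7 and 4 reads in mesoderm and 1 in the other 6 libraries. The second, an assembled form of 24 exons, had 5 and 4 in mesoderm and 0 elsewhere. Another 2 transcripts with 16 reads that the table lists under SMARCA2 run on the opposite strand and were left out. With them the gene was not called in mesoderm (log2 fold change 1.00, edgeR adjusted p 0.135) and was called lower in ectoderm (-2.10, 0.0131).

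As a share of all reads of the 2 ATPase genes, SMARCA2 made up 7.2% and 7.7% in mesoderm. The hPSC libraries had 1.1% and 3.5%, ectoderm 0.58% and 0.47% and endoderm 0.47% and 0, where the upper bound of the 95% Wilson interval for 0 of 227 reads is 1.66%. Per transcript length the mesoderm shares were 10.6% and 11.3%. Dividing by length assumes that reads rise in proportion to it, which was not tested for these long reads. SMARCA4 thus held most of the reads in every library, and the 2 mesoderm libraries were the highest in SMARCA2 on either scale.

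**Figure D3:**
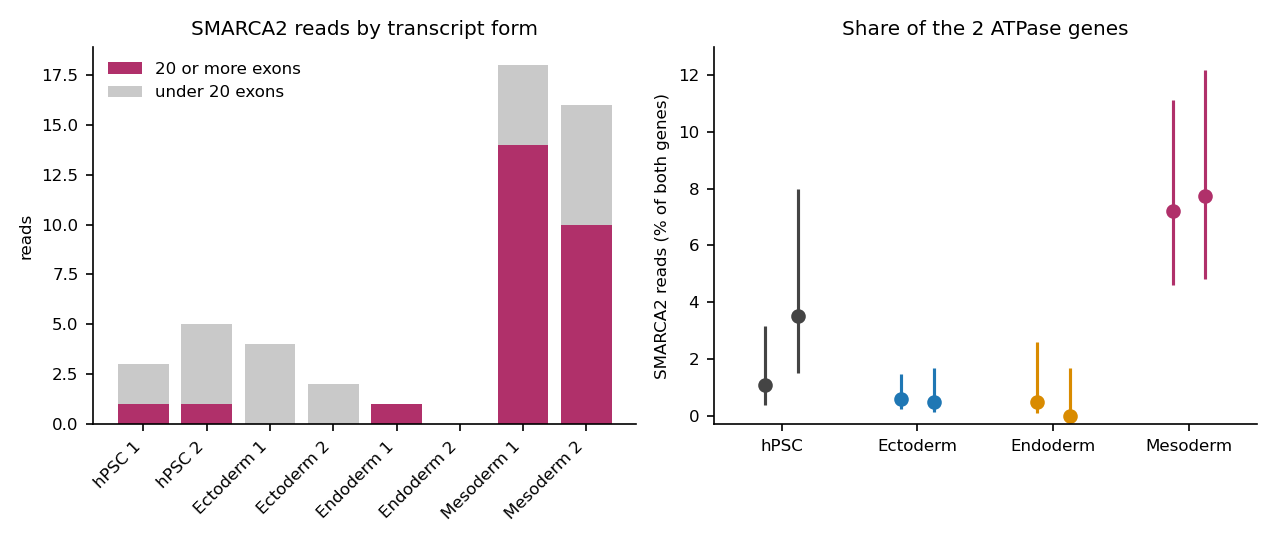
Left, SMARCA2 reads in each library, split into transcripts of 20 or more exons and shorter ones; right, SMARCA2 reads as a percent of SMARCA2 and SMARCA4 reads together, with 95% Wilson intervals. The long forms hold 14 and 10 reads in mesoderm and at most 1 in any other library.

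Genes whose pattern over the 8 libraries was most like that of the ATPases were found by Pearson's r of log2(normalised CPM + 1), as a description. For SMARCA4 these were LRRC8A (r = 0.942), LAPTM4B, SLC25A22, HNRNPM and BAP1 (0.898). For SMARCA2 they were ENSG00000288841 (0.988), PLAT, DPP7, GPRC5C and SPECC1 (0.963). All points share their library and its depth with each other.

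ARID1A (ENSG00000117713.21, chromosome 1, 26696026 to 26782104, plus strand) and ARID1B (ENSG00000049618.25, chromosome 6, 156778872 to 157210779, plus strand) are the mutually exclusive AT-rich interaction subunits of canonical BAF. ARID1A gave 42 and 118 reads from the hPSC libraries, 595 and 468 from ectoderm, 76 and 72 from endoderm and 103 and 74 from mesoderm. Both ectoderm libraries, at 391 and 371 normalised CPM, lay above all others, but the hPSC repeats stood far apart, at 76.6 and 252. The log2 fold change in ectoderm was 1.27 ± 0.40 (SE, edgeR adjusted p 0.0168). Without hPSC repeat 1 it was 0.65 and without repeat 2 it was 2.41, and it remained called in both cases. ARID1A was also higher in ectoderm than in endoderm, by 1.21 ± 0.40 (edgeR adjusted p 0.0168), and than in mesoderm, by 1.34 ± 0.40 (0.0174).

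ARID1B gave 21 and 14 reads from the hPSC libraries, 106 and 91 from ectoderm, 9 and 20 from endoderm and 25 and 27 from mesoderm. In normalised CPM ectoderm was again highest, at 69.6 and 72.2, with 20.3 to 47.9 in the other 6 libraries. The log2 fold change was 1.08 ± 0.36 against hPSC (SE, edgeR adjusted p 0.0221) and 1.12 ± 0.38 against endoderm (0.0167). The first was lost with DESeq2 (adjusted p 0.099) and without either ectoderm library (0.0615 and 0.0732). Its 313 reads were spread over 18 transcripts. ENST00000636748.1, of 4 exons, was the one with most reads, at 57 in all, and ENST00000636930.2, of 20 exons, followed with 41. The 4-exon form had 8 and 11 reads in mesoderm, 32.0% and 40.7% of the gene's reads, and at most 19.0% in any other library. These shares rest on few reads and were not tested. ARID1B made up 15.1% and 16.3% of the reads of both ARID1 genes in ectoderm and from 10.6% to 33.3% elsewhere. The hPSC repeats alone spanned 10.6% to 33.3%, so the groups overlapped.

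The ARID1A transcripts with most reads were ENST00000636219.1, with 407 reads, and an assembled 20-exon form, with 384. Together they took about the same share of the gene's reads in both ectoderm repeats, at 28.1% and 27.6% for the first and 27.2% and 26.5% for the other. In the remaining libraries the first took from 17.5% to 35.1%, both from mesoderm, and the other from 13.5% to 24.3%. An acceptor that adds 3 nt to a coding exon was used by 33.3% and 33.8% of the ectoderm reads of ARID1A, 37.5% and 36.8% of the hPSC reads, 38.2% and 45.7% of the endoderm reads and 48.5% and 47.2% of the mesoderm reads. The 4 groups did not overlap, and the exact permutation p of 0.00952 is the smallest that this design allows (adjusted 0.0762). With only reference transcripts the p was 0.571. A further 4 transcripts listed under ARID1A and 10 under ARID1B are single exons within an intron, with 143 and 106 reads, and were not counted.

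SMARCC1 (ENSG00000173473.11, chromosome 3, 47585269 to 47781893, minus strand) and SMARCC2 (ENSG00000139613.12, chromosome 12, 56162359 to 56189548, minus strand) encode the scaffold. SMARCC1 gave 127 and 50 reads from the hPSC libraries, 436 and 442 from ectoderm, 37 and 17 from endoderm and 87 and 90 from mesoderm. Its normalised CPM was highest in ectoderm, at 286 and 350, and lowest in endoderm, at 83.3 and 40.7, and neither group overlapped any other. The log2 fold change against hPSC was 0.94 ± 0.37 in ectoderm (SE, edgeR adjusted p 0.0458) and -1.47 ± 0.42 in endoderm (0.0170). Between ectoderm and endoderm it was 2.41 ± 0.41 (edgeR adjusted p 0.000133). SMARCC1 was higher in ectoderm than in mesoderm, by 1.08 ± 0.37 (0.0335), and in mesoderm than in endoderm, by 1.33 ± 0.42 (0.0167).

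Single libraries decided some of these calls. Without hPSC repeat 2 the ectoderm value of SMARCC1 was 0.55 (edgeR adjusted p 0.114), and without either ectoderm library or either mesoderm library its adjusted p was 0.0595 to 0.162. The endoderm value was -0.77 without hPSC repeat 1 (0.126) and -0.98 without endoderm repeat 2 (0.2503). All SMARCC1 reads belong to ENST00000254480.10, so no choice between transcripts can be read for this gene.

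SMARCC2 gave 73 and 84 reads from the hPSC libraries, 386 and 354 from ectoderm, 41 and 39 from endoderm and 95 and 83 from mesoderm. In normalised CPM the order was ectoderm, at 254 and 281, then hPSC and mesoderm, which overlapped at 133 to 179, then endoderm, at 92.3 and 93.5. The log2 fold change in ectoderm was 0.82 ± 0.29 against hPSC (SE, edgeR adjusted p 0.0281), 0.82 ± 0.29 against mesoderm (0.0361) and 1.58 ± 0.30 against endoderm (0.00037). In endoderm against hPSC it was -0.76 ± 0.31 (0.0832), and without hPSC repeat 1 it was called at -0.94 (0.0192). The ectoderm call against hPSC was lost without hPSC repeat 1 (0.059), without ectoderm repeat 2 (0.067) and with only reference transcripts (0.131). SMARCC1 made up 53.0% and 55.5% of the reads of both scaffold genes in ectoderm and 63.5% and 37.3% in the 2 hPSC libraries, so the groups overlapped. Per transcript length, with the same untested assumption, these shares were 45.8% and 48.3%, and 56.6% and 30.8%.

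SMARCC2 reads fell on 11 transcripts, of which 4 match a reference transcript. The 2 with most reads are assembled forms of 28 and 29 exons, with 290 and 159 reads. The first took 31.9% and 28.5% of the gene's reads in ectoderm and from 9.5% to 21.9% in the other libraries. ENST00000267064.8, which ends at the nearer of the gene's 3′ ends, went the other way. It took 14 and 25 reads of the hPSC libraries, 28 and 31 of ectoderm, 4 and 9 of endoderm and 17 and 26 of mesoderm. As a share of the gene that is 19.2% and 29.8% in hPSC and 7.3% and 8.8% in ectoderm, with 9.8% to 31.3% in the other layers. Relative to the gene it fell by 1.79 on the log2 scale in ectoderm (diffSpliceDGE adjusted p 0.0263, where 1.26% of 6968 tested transcripts were called). The gene as a whole was not called for transcript choice in ectoderm (edgeR adjusted p 0.0543).

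Among SMARCC2 transcripts of 20 or more exons, the nearer 3′ end at position 56163328 was used by 14.6% and 22.5% of reads in ectoderm. The share was 35.8% and 42.1% in hPSC, 29.03% and 40.5% in endoderm and 27.0% and 44.9% in mesoderm, so ectoderm lay below every other library. The rest ended at 56162359. These shares were described after they were seen, with no test. Transcripts with the nearer end were 3841 to 4408 nt long and the others 4652 to 5652 nt. Ectoderm reads came from longer transcripts over all genes. The part of that in these shares, and in the fall of ENST00000267064.8, was not tested.

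The 93-nt exon of SMARCC2 was included in 32.7% and 27.8% of reads in ectoderm, 20.9% and 25.0% in hPSC, 23.6% and 25.6% in mesoderm and 16.1% and 18.9% in endoderm. Ectoderm was highest and endoderm lowest, with no overlap (exact permutation p 0.0190, adjusted 0.114). With only reference transcripts the p was 0.0952. A stretch of 279 nt near the 3′ end of the gene, which is either kept or spliced out, was kept in 73.3% and 76.6% of reads in hPSC and in 58.2% and 61.5% in ectoderm. Endoderm had 62.5% and 65.5% and mesoderm 71.2% and 70.2%. Here too the groups did not overlap (exact permutation p 0.00952, adjusted 0.0762), and with only reference transcripts the p was 0.238.

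**Figure D4:**
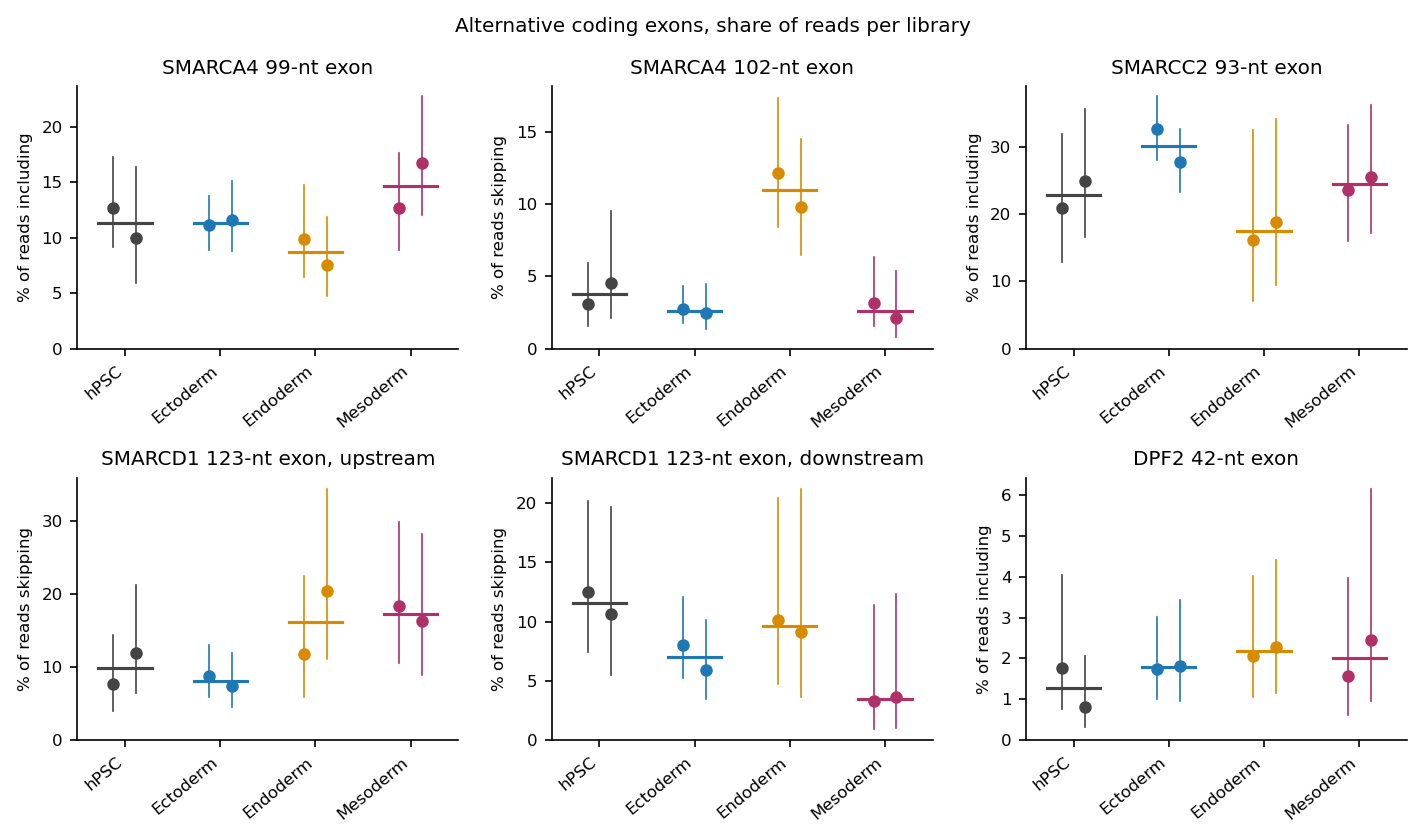
Share of reads (percent, vertical axis from 0) that include or skip 6 alternative coding exons, per library with 95% Wilson intervals and group means as bars. Skipping of the SMARCA4 102-nt exon is at 12.2% and 9.8% in endoderm and at most 4.5% elsewhere.

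SMARCD1 (ENSG00000066117.15, chromosome 12, 50085180 to 50100707, plus strand) is a BAF60 subunit, which links the core to transcription factors. The hPSC libraries gave 104 and 75 reads, the ectoderm libraries 249 and 202, the endoderm libraries 59 and 44 and the mesoderm libraries 60 and 55. The normalised CPM was 190 and 160 in hPSC and 164 and 160 in ectoderm, then 133 and 105 in endoderm and 102 and 97.1 in mesoderm. The mesoderm value against hPSC was -0.80 ± 0.30 (SE, edgeR adjusted p 0.0494). That call rests on a p at the threshold. It was lost in 14 of 17 alternatives, with an adjusted p of up to 0.239, and the value itself was from -0.93 to -0.57.

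Of the 848 SMARCD1 reads 691 were ENST00000394963.9, the full form of 13 exons, and the other forms lack one of the 2 exons of 123 nt. The downstream exon was skipped by 12.5% and 10.7% of hPSC reads, by 8.0% and 5.9% of ectoderm reads, by 10.2% and 9.1% of endoderm reads and by 3.3% and 3.6% of mesoderm reads. The groups stood in the order hPSC, endoderm, ectoderm, mesoderm without overlap (exact permutation p 0.00952, adjusted 0.0762). The mesoderm shares rest on 2 reads of 60 and 2 of 55. The same p was found with only reference transcripts, and it was at most 0.0286 when 1 library was left out. The upstream exon was skipped in 7.7% and 12.0%, 8.8% and 7.4%, 11.9% and 20.5%, and 18.3% and 16.4% of reads in the same 4 groups taken in the order hPSC, ectoderm, endoderm, mesoderm (exact permutation p 0.190). The form lacking the upstream exon, with 90 reads, is the second most abundant.

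SMARCD3 (ENSG00000082014.17, chromosome 7, 151238973 to 151277163, minus strand), the paralog known from heart and muscle, was near the limit of detection. The hPSC libraries gave 5 and 1 reads, the ectoderm libraries 19 and 6, the endoderm libraries 1 and 5 and the mesoderm libraries 8 and 4, spread over 8 transcripts. ENST00000392811.6 had 24 of its 49 reads and an 11-exon assembled form had 8. The normalised CPM was from 2.13 to 13.55 and every group overlapped the others, so no difference was detectable at this depth. SMARCD3 made up from 1.3% to 11.8% of the reads of both SMARCD genes, with no order between groups.

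DPF2 (ENSG00000133884.11, chromosome 11, 65333843 to 65354262, plus strand) reads histone modifications through its double PHD finger and is specific to canonical BAF. The hPSC libraries gave 288 and 499 reads, the ectoderm libraries 710 and 511, the endoderm libraries 398 and 363 and the mesoderm libraries 270 and 179. In normalised CPM the endoderm libraries stood at 896 and 870 and the hPSC repeats at 525 and 1064. Ectoderm had 466 and 405 and mesoderm 457 and 316, below both of these groups. The log2 fold change of mesoderm was -1.02 ± 0.35 against hPSC (SE, edgeR adjusted p 0.0332) and -1.16 ± 0.35 against endoderm (0.0135). Ectoderm was lower than endoderm by -0.96 ± 0.34 (edgeR adjusted p 0.0236), and against hPSC it stood at -0.82 ± 0.34 (0.0585). Without hPSC repeat 2 the mesoderm value was -0.44 (0.221), and leaving out any library but hPSC repeat 1 took its adjusted p over 0.05. Without hPSC repeat 1 DPF2 was called lower in ectoderm than in hPSC, at -1.23. With library totals and no composition factor the values against endoderm were -0.55 in mesoderm (0.116) and -0.14 in ectoderm (0.660).

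DPF2 was the one member whose transcript choice was called against hPSC, in mesoderm (diffSpliceDGE adjusted p 0.00277, where 6.97% of 2638 tested genes were called). None was called in ectoderm or endoderm, where 5.84% and 4.97% were. ENST00000528416.6, of 11 exons, held from 87.7% to 96.6% of DPF2 reads in every library. The form that moved was ENST00000444314.6, which ends within the gene after 4 exons and is annotated as a retained intron in GENCODE release 29. The hPSC libraries held 0 and 3 of its reads, the ectoderm pair 14 and 8, the endoderm pair 5 and 6 and the mesoderm pair 13 and 9. These are 0 and 0.6%, 2.0% and 1.6%, 1.3% and 1.7%, and 4.8% and 5.0% of the gene's reads, so both mesoderm libraries were highest and both hPSC libraries lowest. Relative to the gene the form rose by 3.65 on the log2 scale in mesoderm (diffSpliceDGE adjusted p 0.00835), from a base of 3 reads. The form passed the count filter only through the mesoderm libraries, where its share is highest, so this test is not independent of the filter. DPF2 had 2 tested transcripts, so the gene-level call rests on the same form. The gene-level call was lost without either mesoderm library. The 42-nt coding exon of DPF2 was included in 0.81% to 2.45% of reads, and the groups overlapped (exact permutation p 0.419).

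ACTL6A (ENSG00000136518.17, chromosome 3, 179562906 to 179588407, plus strand), the actin-like subunit BAF53A of dividing cells, gave 59 and 80 reads from the hPSC libraries, 133 and 95 from ectoderm, 15 and 20 from endoderm and 32 and 40 from mesoderm. All 6 layer libraries lay below both hPSC libraries in normalised CPM, at 33.8 to 87.4 against 108 and 171. The log2 fold change was -1.78 ± 0.37 in endoderm (SE, edgeR adjusted p 0.00224), -1.13 ± 0.34 in mesoderm (0.0169) and -0.72 ± 0.31 in ectoderm (0.0666). Ectoderm was higher than endoderm by 1.06 ± 0.36 (edgeR adjusted p 0.0184). The endoderm call was lost only without endoderm repeat 1 (-1.46, adjusted p 0.053) among the alternatives run. The mesoderm call was lost without hPSC repeat 2 (-0.79, adjusted p 0.0585), without mesoderm repeat 1 (-0.86, 0.175) or repeat 2 (-1.25, 0.0699), with DESeq2 (0.066) and with the length trend removed (-0.77, 0.0737). Without hPSC repeat 1 ACTL6A was called lower in ectoderm too (-1.01, edgeR adjusted p 0.0021). Its 2 transcripts, ENST00000429709.7 and ENST00000450518.6, differ by 144 nt at an alternative donor outside the coding sequence. The longer form took from 77.5% to 93.3% of reads, and the groups overlapped (exact permutation p 0.619).

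The comparisons between layers ask which subunits set them apart from each other. Between ectoderm and endoderm 6 of the 9 members were called, where 63.1% of all genes were (33.1% higher and 29.9% lower in ectoderm). ARID1A, ARID1B, SMARCC1, SMARCC2 and ACTL6A were higher in ectoderm and DPF2 was lower. Between ectoderm and mesoderm 4 were called, against 35.4% of all genes, with ARID1A, SMARCC1 and SMARCC2 higher in ectoderm and SMARCA2 lower. Between mesoderm and endoderm 3 were called, against 47.1%, with SMARCA2 and SMARCC1 higher in mesoderm and DPF2 lower. SMARCC1 was the one member called in all 3 of these comparisons. SMARCC1 and SMARCC2 between ectoderm and endoderm kept their calls under all 17 alternatives. SMARCA2 between ectoderm and mesoderm kept its call under the 15 alternatives in which it was tested, and in the others it was not tested. It passed the main count filter only through mesoderm, where it is high, so its tests with mesoderm are not independent of that filter. Leaving out a single library ended other calls. Between ectoderm and endoderm ARID1A was lost without either endoderm library, ARID1B without either ectoderm library or endoderm repeat 1, ACTL6A without repeat 1 of either layer, and DPF2 when any 1 of the 4 libraries was left out. Between ectoderm and mesoderm ARID1A was lost without ectoderm repeat 1 or either mesoderm library, and SMARCC1 and SMARCC2 when any 1 of the 4 was left out. Between mesoderm and endoderm SMARCC1 was lost without endoderm repeat 2 or either mesoderm library, and DPF2 without endoderm repeat 1 or mesoderm repeat 2. With the length trend removed, ARID1A and ARID1B were no longer called between ectoderm and endoderm, nor ARID1A, SMARCC1 and SMARCC2 between ectoderm and mesoderm, nor SMARCC1 between mesoderm and endoderm. ACTL6A was then called higher in ectoderm than in mesoderm and in mesoderm than in endoderm, and SMARCD1 higher in ectoderm than in mesoderm.

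Of 20 other subunits of the BAF, PBAF and ncBAF complexes 12 could be tested. In ectoderm 6 of the 12 were higher than in hPSC and 2 lower, in endoderm 2 were lower, and in mesoderm 2 were higher. Of all tested genes 23.8% were higher and 24.8% lower in ectoderm, 13.7% were lower in endoderm and 16.9% were higher in mesoderm. The median log2 fold change of the 12 was 0.73, -0.13 and 0.63. PBRM1 and ARID2, which define the PBAF form, rose in ectoderm by 2.58 ± 0.39 (SE, edgeR adjusted p 0.000113) and 2.19 ± 0.42 (0.000734). PBRM1 gave 15 and 7 reads from the hPSC libraries and 184 and 165 from ectoderm, and it was also higher in mesoderm, by 1.68 ± 0.42 (edgeR adjusted p 0.0059). BRD7, a bromodomain subunit of PBAF, gave 11 and 7 reads from the hPSC libraries, 66 and 56 from ectoderm, 28 and 31 from mesoderm and 2 and 0 from endoderm. It was called higher in ectoderm and mesoderm and lower in endoderm (edgeR adjusted p 0.0136, 0.0122 and 0.0180).

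SMARCE1, a core subunit with an HMG box, was higher in ectoderm and lower in endoderm than in hPSC. Its reads numbered 59 and 56 for hPSC, 442 and 358 for ectoderm and 23 and 26 for endoderm, with log2 fold changes of 1.38 ± 0.29 (SE, edgeR adjusted p 0.00123) and -1.01 ± 0.32 (0.0309). SS18 and BCL7A, 2 further accessory subunits, were higher in ectoderm, by 0.95 ± 0.31 (edgeR adjusted p 0.0179) and 1.25 ± 0.36 (0.0102). SMARCB1, the core subunit also known as INI1, and BCL11A, a zinc-finger subunit, were lower there, by -0.97 ± 0.31 (edgeR adjusted p 0.0183) and -2.52 ± 0.63 (0.00438). With the length trend removed 5 of the 12 were higher in ectoderm, SMARCE1, BCL7A, SS18, ARID2 and PBRM1, and BCL11A was lower. The ectoderm calls of SMARCE1 and ARID2 held under every alternative run. The endoderm call of SMARCE1 was lost with DESeq2, with no filter on low counts, with the length trend removed and without any 1 of the 6 layer libraries. BRD7 was called in no layer with DESeq2, and its call was also lost in ectoderm with the length trend removed, in endoderm without endoderm repeat 2 and in mesoderm without mesoderm repeat 2. PBRM1 was not called in ectoderm or mesoderm with only reference transcripts, nor in mesoderm without mesoderm repeat 2. SS18 was lost without ectoderm repeat 1, and BCL7A without ectoderm repeat 2 and with DESeq2. SMARCB1 was lost with no filter, with the length trend removed, with no composition factor and without any layer library but ectoderm repeat 1. BCL11A was not called at a minimum count of 30, with only reference transcripts or without ectoderm repeat 1. Beside these, 9 of 15 tested ATP-dependent remodelers of other families were higher in ectoderm and none lower, which became 5 higher and 1 lower with the length trend removed. Of 10 tested genes of Polycomb repressive complex 2, which opposes BAF at many promoters, 3 were higher in ectoderm and 2 lower, or 2 and 3 with the length trend removed. In endoderm these 2 lists had 2 higher with 1 lower, and 0 higher with 2 lower. In mesoderm they had 4 higher with 0 lower, and 0 higher with 1 lower. The shares of all tested genes were 23.8% higher with 24.8% lower for ectoderm, 13.4% with 13.7% for endoderm, and 16.9% with 18.2% for mesoderm. With the length trend removed 3898 of all genes were called in ectoderm, 44.5% of them higher.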

How the data were processed

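RNA of 8 libraries was analysed from read counts per assembled transcript. Per the submitters' processing notes, reads were aligned with minimap2 and transcripts assembled with StringTie on GRCh38 (hg38). The counter, versions, strand setting and annotation release are not given in the sources used here. The authors deposited whole raw counts with no normalization. Both endoderm columns are recorded here under expected counts, are whole raw counts as the authors deposited them, and were not rounded. Of 36 multi-exon reference transcripts of the members, 35 had the introns of GENCODE release 29.

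Transcript counts were summed per gene over the whole combined table. edgeR 4.0.16 in R 4.3.3 was used with TMM factors, filterByExpr at a minimum count of 10, 1 quasi-likelihood fit over 4 groups, and two-sided tests with Benjamini-Hochberg adjustment over all 10847 genes at 0.05. Transcript choice was tested with diffSpliceDGE. Splice events needed 40 reads in the rarer form and were tested with an exact permutation F test over all partitions of the libraries into 4 pairs, adjusted over 24 events, of which several overlap. Both tests were tested on simulated data with known changes. For gene counts (9350 genes), 80% of 4-fold changes were recovered in ectoderm against hPSC, 63.5% in endoderm and 70% in mesoderm, and 13.5%, 5.22% and 4.11% of calls were false. For transcript choice (1862 genes), 100%, 99% and 100% of switches were recovered, and 7.41%, 10.8% and 2.91% of calls were false. In a single simulated set per test, false calls were thus above the 5% aimed at in ectoderm and endoderm, with 5.22% close to it. The gene counts had 200 changed genes per layer, far fewer than were called in the data, and no length trend. These shares need not hold for the data. DESeq2 1.42.0 was an alternative. Members and lists were chosen, and splice events defined, with earlier results of these data known. All members were named, with their 2 most abundant transcripts and any transcript called on its own. Of other subunits called in any comparison, the 8 with the smallest p were named.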

Additional observations from a re-analysis of the deposited data

How the results depend on the processing

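The alternatives were summarised for 31 fold changes of members, which are a part of those tested. Of 521 values, 397 kept their direction and their side of the threshold, 94 lost the call, 21 gained one and 9 changed sign. In ectoderm against hPSC, 2 members were called with DESeq2 and 1 with the length trend removed. In endoderm 4 were called with library totals and no composition factor. In mesoderm 1 was called with DESeq2, and 2 each at a minimum count of 30, with only reference transcripts, and with no composition factor. In ectoderm against mesoderm DESeq2 called 2. At a minimum count of 30 no member had a changed transcript choice in mesoderm (0), because the short DPF2 form was no longer tested.

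Leaving out each library in turn gave 1 to 5 members in ectoderm against hPSC, 1 to 4 in endoderm and 0 to 3 in mesoderm. The layer comparisons gave 2 to 7 for ectoderm against endoderm, 1 to 6 for ectoderm against mesoderm and 1 to 4 for mesoderm against endoderm. The counts for transcript choice ranged from 0 to 2 in ectoderm, 0 to 1 in endoderm and 0 to 1 in mesoderm.

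Among these 31 fold changes, the values that changed sign were not called before or after. ACTL6A in ectoderm became 0.25 with the length trend removed. SMARCA4 in ectoderm became -0.58 with the length trend removed, -0.23 without hPSC repeat 2 and -0.07 without ectoderm repeat 1. In endoderm it became -0.046 with no composition factor. In mesoderm it became 0.0195 with only reference transcripts, 0.10 with no composition factor, 0.34 without hPSC repeat 1 and 0.054 without mesoderm repeat 2. Over all left-out libraries SMARCA4 ran from -0.23 to 0.49 in ectoderm and from -0.44 to 0.34 in mesoderm. The cause was not tested.

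Over all genes, DESeq2 called 3356 in ectoderm against hPSC, where edgeR called 5274, 1836 against 2946 in endoderm, 2315 against 3810 in mesoderm and 2015 against 3839 between ectoderm and mesoderm. A minimum count of 30 gave 3409 in ectoderm, 2538 in mesoderm and 4350 between ectoderm and endoderm, against 6841 at a minimum of 10. With no composition factor the median log2 fold change of all genes shifted by 0.46 for ectoderm, -0.35 for endoderm and 0.24 for mesoderm. The share of called genes that were higher moved from 49.0% to 68.2% in ectoderm against hPSC, from 49.5% to 31.0% in endoderm and from 48.1% to 59.9% in mesoderm. It moved from 52.5% to 72.9% between ectoderm and endoderm, 51.3% to 63.3% between ectoderm and mesoderm and 50.7% to 73.2% between mesoderm and endoderm. The labels state no link between equal repeat numbers, and the correlation of same-numbered deviations was from -0.03 to 0.15. This cannot show whether libraries of the same number were handled together. With the repeat number as a block, 4, 2 and 3 members were called in the 3 layers, 6 in ectoderm against endoderm, and 3 each in ectoderm against mesoderm and in mesoderm against endoderm. Low counts limit SMARCA2 and SMARCD3.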
